A study of Mus musculus with 52 samples.

Results

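The genes described here are the secreted Wnt ligands of the mouse, their Frizzled, Lrp and Ror receptors, the R-spondins and their Lgr receptors, the secreted antagonists, and the reporter and nuclear genes Axin2 and Lef1. They were chosen by symbol, as the genes named Wnt, Fzd, Sfrp, Dkk or Rspo with a number, Lgr4 to Lgr6, Lrp5 and Lrp6, together with Axin2, Lef1, Sost, Sostdc1, Wif1, Ror1 and Ror2. Each gene was represented by the probe set with the highest mean of those that carry that gene alone. The rule found 54 of 22180 genes, namely 19 ligands, 14 receptors or coreceptors, 7 R-spondins or their receptors, 11 antagonists, 2 nuclear or feedback genes and 1 antisense transcript. Of these, 50 passed the filter on low values and were tested among 14911 genes. The other 4 were Wnt3, Fzd10, Sostdc1 and Fzd10os, the transcript antisense to Fzd10. They lay above the median of all values, 4.05 on the log2 scale, in at most 3 of 52 arrays. Tcf7, which the rule also names, was not analysed here.

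Affymetrix Mouse Gene 2.0 ST arrays measured the RNA of primary cultures of bone marrow multipotent stromal cells from female C57BL/6J mice aged 8 weeks. The groups were Rosi, LG268, TBT, TPhP, MEHP and vehicle (Vh, DMSO), each harvested after 1 and after 4 days in osteoinductive medium, and naive cells. The labels name no allele or transgene for any group, and all chemical and vehicle groups received the same medium with ascorbate, β-glycerol phosphate, insulin and dexamethasone. The labels differ on the naive cells: the growth protocol has them harvested undifferentiated ahead of the medium change, while the treatment protocol counts them among cells given the new medium without a chemical. Rosi is rosiglitazone (100 nM), which activates PPARγ, the master regulator of adipocyte differentiation. LG268 is LG100268 (100 nM), which activates RXR, with which PPARγ pairs on DNA, and TBT is the organotin tributyltin (80 nM). TPhP is the flame retardant triphenyl phosphate and MEHP is mono-2-ethylhexyl phthalate, which forms from a plasticiser; no dose is given for either. Each of the 13 groups held 4 arrays, one for each of the numbers 12, 15, 19 and 20, read here as pools of bone marrow from several animals. Values of a group are given in that order of pools.

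Wnt proteins are secreted lipid-modified ligands that bind Frizzled receptors. With the coreceptors Lrp5 and Lrp6 they stabilise β-catenin, which acts with Lef1 and its relatives on target genes such as Axin2, while Ror1 and Ror2 serve branches that do not need β-catenin. R-spondins bind Lgr receptors and keep Frizzled proteins at the cell surface, and Sfrp, Dkk, Wif1 and sclerostin proteins hold the signal back at the ligand or the coreceptor. In bone marrow stroma, Wnt signalling through β-catenin is known to favour osteoblast formation and to restrain adipocyte formation.

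The median log2 value of an array lay between 3.97 and 4.15, and precision is limited by the number of arrays. The 6 stromal progenitor markers averaged 8.16 to 9.84 over the arrays, so markers of the labelled cell type were detected, and so were the 6 macrophage markers (10.43 to 10.66 with vehicle at day 4). The 5 adipocyte markers averaged 11.47 to 11.65 with Rosi, 9.53 to 10.32 with LG268, 10.70 to 11.33 with TBT, 10.94 to 11.50 with TPhP and 10.87 to 11.50 with MEHP at day 4, against 7.46 to 9.25 with vehicle. The 6 osteoblast markers averaged 6.81 to 7.43 with Rosi, 7.65 to 8.47 with LG268, 6.99 to 7.81 with TBT, 7.09 to 8.60 with TPhP and 6.58 to 7.89 with MEHP at day 4, against 7.97 to 9.47 with vehicle. The part of these shifts in cell markers in the differences below was not tested. In bulk cultures, fewer cells of a type and less RNA per cell cannot be told apart. The p-values rest on a spread between pools that was shared over all 13 groups, and they do not reach beyond these 4 pools. Vehicle at day 4 spread more widely in some genes, as for Sfrp2 with an SD of 0.81 against 0.04 to 0.46 in the other groups. With only the arrays compared, fewer genes were called at day 4 with LG268, TBT, TPhP and MEHP, as counted at the end. All 5 chemicals were compared with the same 4 vehicle arrays of a day, so their comparisons are not independent.

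At day 4 the antagonists Sfrp2, Wif1, Dkk3 and Sfrp1 and the amplifier Rspo2 were lower with at least 4 of the 5 chemicals, and the receptors Fzd4 and Lgr4 were higher with all 5. A gene was called where limma's adjusted p over all genes tested was under 0.05, and differences are log2 values of the first group minus the second, ± SE. With Rosi, 21 of 50 genes were called at day 4, 5 higher and 16 lower, or 42% against 49.1% of all genes tested (21.3% higher and 27.7% lower). With LG268, 5 were higher and 3 lower (16% against 6.47% of all genes, 4.21% higher and 2.26% lower), and with the pool as replicate block 13 were called. Counts with the block, here and below, are given without the share of all genes called with the block. They are thus not to be set against the shares of the fit without it. TBT called 6 higher and 9 lower (30% against 20.1%, of which 10.6% higher and 9.42% lower). TPhP called 4 higher and 10 lower (28% against 18.9%, of which 11% higher and 7.94% lower), and MEHP 4 higher and 11 lower (30% against 23.8%, of which 12.1% higher and 11.7% lower). The shares thus stood above the background for 4 chemicals and below it for Rosi. The median difference over the 50 genes was -0.11 with Rosi, 0.05 with LG268, -0.12 with TBT and -0.15 with both TPhP and MEHP, while that of all genes lay between -0.05 and -0.02. In all, 32 of the 50 genes were called in at least 1 of 13 comparisons, or 64% against 68.4% of all genes.

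At day 1 Rosi called 5 genes higher and 4 lower (18% against 7.25% of all genes, 4.16% higher and 3.08% lower). The other chemicals called 0 of the 50 with limma, where 0.241% of all genes were called with LG268, 0.543% with TBT, 0.215% with TPhP and 0.523% with MEHP. At an unadjusted p under 0.05 the counts were 5 with LG268 (10% against 4.02% of all genes), 7 with TBT (14% against 6.44%), 7 with TPhP (14% against 5.54%) and 11 with MEHP (22% against 7.57%). With the pool as block the calls numbered 0, 1, 2 and 4 in the same order, and those 7 calls are given with their genes below.

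**Figure D1:**
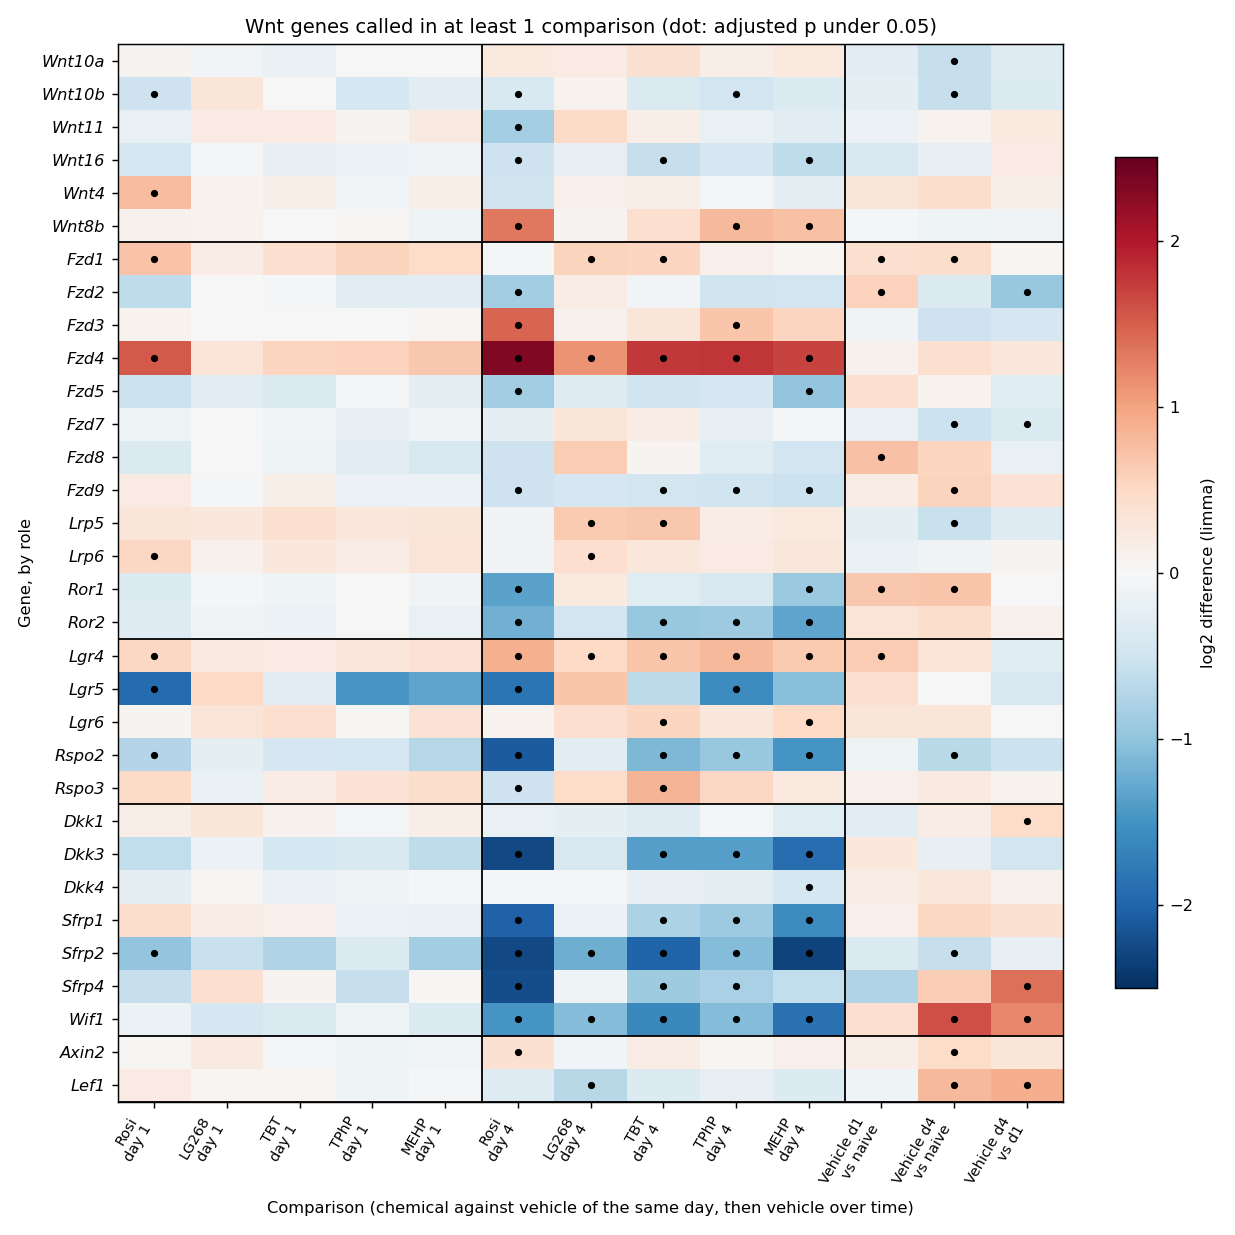
Log2 difference of each called gene (down the page, by role) in each of the 13 comparisons (across), with a mark where limma's adjusted p was under 0.05. The day 4 columns hold most of the marks, with Fzd4 and Lgr4 higher and Sfrp2 and Wif1 lower with all 5 chemicals.

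Of the 50 genes, Fzd4 and Lgr4 were higher with all 5 chemicals at day 4 (4% against 1.27% of all genes) and Sfrp2 and Wif1 were lower with all 5 (4% against 0.858%). Fzd4 is a Frizzled receptor that also binds Norrin, Lgr4 is an R-spondin receptor, Sfrp2 is a decoy with a Frizzled-like domain, and Wif1 binds Wnt ligands outside the cell. These calls rest on the spread shared over all groups. With only the arrays compared, LG268 and TPhP each called fewer than 4 of the 50 genes at day 4, as counted at the end. Not all 4 of these genes were thus called with every chemical in that setting. Because these 4 were called with every chemical in the shared fit, the 250 bases before their RefSeq start sites are shown. They come from the GRCm38.p6 promoter table, 5′ to 3′ on the plus strand. They lie at chr2:109917397-109917646 (Lgr4), chr3:83766071-83766320 (Sfrp2), chr7:89404116-89404365 (Fzd4) and chr10:121033754-121034003 (Wif1). Capitals mark matches to the GC box GGGCGG on either strand, which may overlap each other.
Lgr4: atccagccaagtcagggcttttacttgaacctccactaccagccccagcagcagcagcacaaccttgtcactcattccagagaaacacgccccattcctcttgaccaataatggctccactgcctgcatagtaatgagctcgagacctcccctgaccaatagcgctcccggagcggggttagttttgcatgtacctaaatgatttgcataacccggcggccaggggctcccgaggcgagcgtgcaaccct
Sfrp2: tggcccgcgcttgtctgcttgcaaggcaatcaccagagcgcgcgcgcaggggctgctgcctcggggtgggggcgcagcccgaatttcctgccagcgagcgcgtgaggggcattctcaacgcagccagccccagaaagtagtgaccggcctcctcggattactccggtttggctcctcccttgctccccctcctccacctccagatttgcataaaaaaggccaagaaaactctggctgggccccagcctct
Fzd4: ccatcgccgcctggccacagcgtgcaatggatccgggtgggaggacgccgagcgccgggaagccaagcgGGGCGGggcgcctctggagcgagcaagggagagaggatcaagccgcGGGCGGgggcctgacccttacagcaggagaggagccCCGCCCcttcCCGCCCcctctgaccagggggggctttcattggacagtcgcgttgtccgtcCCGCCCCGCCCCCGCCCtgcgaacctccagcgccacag
Wif1: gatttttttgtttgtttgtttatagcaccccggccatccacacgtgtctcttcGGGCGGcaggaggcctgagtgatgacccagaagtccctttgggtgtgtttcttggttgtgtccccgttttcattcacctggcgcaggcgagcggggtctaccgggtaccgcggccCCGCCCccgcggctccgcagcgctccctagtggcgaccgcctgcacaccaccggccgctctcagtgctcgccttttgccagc

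The GC box was present before Fzd4 and Wif1 and in neither of the windows before Lgr4 and Sfrp2. Their GC content was 72.8% (Fzd4), 62.8% (Wif1), 55.6% (Lgr4) and 63.6% (Sfrp2). Promoter entries were held for 35 of the 54 genes, 41 entries in all with a median GC content of 66.4%, against 52.4% over all 32851 entries. The GC box was found in 70.7% of the 41 entries and in 32.7% of all. The TCF/LEF core CTTTGA was in 14.6% of the 41 and in 13.8% of all, and the nuclear receptor half-site AGGTCA in 2.44% and in 14%. The direct repeat AGGTCANAGGTCA was in 0 of the 41 and in 0.0335% of all. All motifs were searched on both strands, and none of the last 3 occurs in the 4 windows printed, which says only that these letters are not there.

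Fzd4 had values of 10.10, 9.42, 9.90 and 9.86 with Rosi at day 4, against 7.01, 7.25, 7.94 and 7.80 with vehicle. It read 8.53, 8.49, 8.78 and 8.68 with LG268 and 8.99, 9.21, 9.38 and 9.47 with TBT. It read 9.29, 8.81, 9.61 and 9.43 with TPhP and 8.70, 8.91, 9.59 and 9.59 with MEHP. All 20 arrays of the chemicals thus lay above all 4 of vehicle. The difference from vehicle was 2.32 ± 0.23 with Rosi (adjusted p = 1.66e-11), a 4.98-fold level, and 1.12 ± 0.23 with LG268 (adjusted p = 0.00106). It was 1.76 ± 0.23 with TBT (adjusted p = 1.58e-07), 1.78 ± 0.23 with TPhP (adjusted p = 9.67e-08) and 1.70 ± 0.23 with MEHP (adjusted p = 2.13e-07). Fzd4 was also the gene of the list with the smallest adjusted p at day 1, with 8.66, 8.96, 8.58 and 8.77 in Rosi cultures against 7.73, 7.16, 6.89 and 7.10 in vehicle cultures (1.52 ± 0.23, adjusted p = 4.33e-06).

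Lgr4 had values of 8.04, 7.72, 7.96 and 7.95 with Rosi at day 4, against 6.51, 6.91, 7.33 and 7.35 with vehicle. With LG268 it read 7.49, 7.42, 7.63 and 7.58, and with TBT 7.59, 7.62, 7.90 and 7.76. With TPhP it read 8.05, 7.55, 8.00 and 7.75, and with MEHP 7.51, 7.43, 7.98 and 7.78. No chemical overlapped vehicle, although pools 12 and 15 of vehicle were lower than 19 and 20. The difference was 0.89 ± 0.13 with Rosi (adjusted p = 3.6e-07), 0.50 ± 0.13 with LG268 (adjusted p = 0.0144) and 0.69 ± 0.13 with TBT (adjusted p = 0.000196). It was 0.81 ± 0.13 with TPhP (adjusted p = 1.38e-05) and 0.65 ± 0.13 with MEHP (adjusted p = 0.000264). The LG268 call was lost without pool 12 (adjusted p = 0.161) or 15 (adjusted p = 0.078). Lgr4 was also higher at day 1 with Rosi, at 7.82, 7.88, 7.84 and 7.89 against 7.26, 7.32, 7.39 and 7.35 with vehicle (0.53 ± 0.13, adjusted p = 0.00759), a call lost without pool 20 (adjusted p = 0.0912).

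Sfrp2 had values of 5.94, 6.19, 5.90 and 5.73 with Rosi at day 4, against 7.45, 7.55, 8.84 and 8.95 with vehicle. It read 6.78, 6.95, 7.18 and 6.97 with LG268 and 6.04, 6.62, 5.90 and 6.22 with TBT. It read 7.67, 6.97, 7.17 and 6.64 with TPhP and 5.96, 6.47, 5.38 and 5.72 with MEHP. Only pool 12 of TPhP reached into the range of vehicle. Sfrp2 fell with Rosi (-2.26 ± 0.23, adjusted p = 3.04e-11), with MEHP (-2.31 ± 0.23, adjusted p = 2.24e-10) and with TBT (-2.0 ± 0.23, adjusted p = 8.75e-09). It fell with LG268 (-1.23 ± 0.23, adjusted p = 0.000295) and with TPhP (-1.09 ± 0.23, adjusted p = 0.000358), the last lost without pool 20 (adjusted p = 0.102). The second probe set of Sfrp2, with a mean of 4.39, gave differences of -0.63 with Rosi, -0.36 with LG268, -0.57 with TBT, -0.47 with TPhP and -0.63 with MEHP. At day 1 Sfrp2 read 7.32, 7.45, 7.53 and 7.41 with Rosi against 8.18, 8.29, 8.48 and 8.69 with vehicle (-0.98 ± 0.23, adjusted p = 0.00277), a call lost without pool 20 (adjusted p = 0.0575). With MEHP at day 1 it read 7.63, 7.57, 7.44 and 7.53 (-0.87 ± 0.23, adjusted p = 0.0684, and 0.0446 with the pool as block).

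Wif1 had values of 4.84, 5.08, 4.72 and 4.76 with Rosi at day 4, against 5.05, 6.83, 6.45 and 6.99 with vehicle. It read 5.32, 5.81, 4.89 and 4.95 with LG268 and 4.37, 5.44, 4.46 and 4.63 with TBT. It read 6.29, 5.30, 4.84 and 4.59 with TPhP and 4.56, 4.95, 3.97 and 4.36 with MEHP. Pool 12 of vehicle was low, so that only MEHP was separated from vehicle. Wif1 fell with Rosi (-1.48 ± 0.30, adjusted p = 4.67e-05), with TBT (-1.61 ± 0.30, adjusted p = 9.19e-05) and with MEHP (-1.87 ± 0.30, adjusted p = 5.08e-06). It fell with LG268 (-1.09 ± 0.30, adjusted p = 0.017) and with TPhP (-1.08 ± 0.30, adjusted p = 0.00702), lower in 3 of 4 pools each. Those last calls were lost without pool 19 (adjusted p = 0.179 with LG268 and 0.168 with TPhP) or 20 (0.303 and 0.317), and with LG268 also without pool 15 (0.0629).

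**Figure D2:**
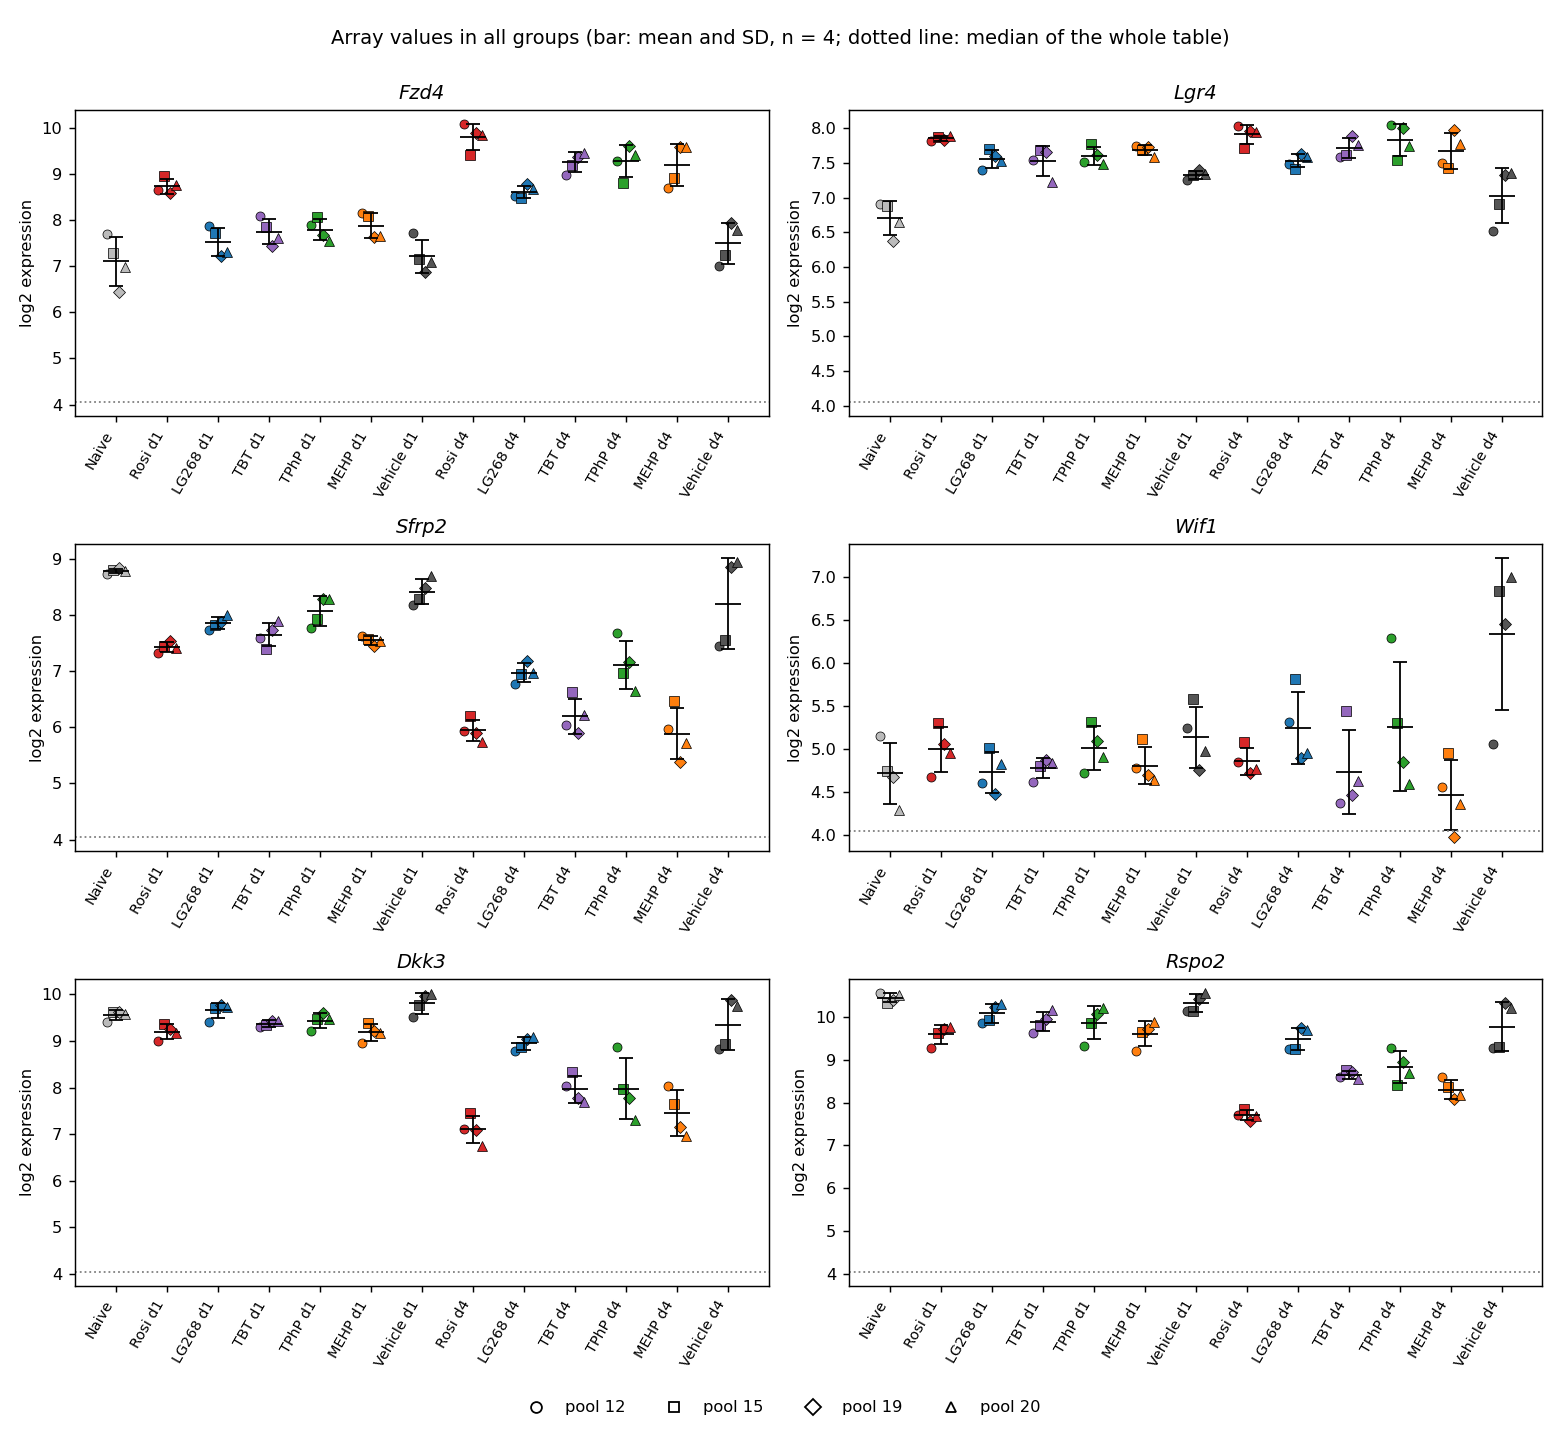
Log2 value of Fzd4, Lgr4, Sfrp2, Wif1, Dkk3 and Rspo2 in every array of the 13 groups (points), with mean and SD (bars) and the median of all values, 4.05, as a dotted line. At day 4 the vehicle arrays lay below all chemicals for Fzd4 and Lgr4, and Dkk3 and Rspo2 were lowest with Rosi.

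Among the other antagonists, Sfrp1, Sfrp4 and Dkk3 fell with several chemicals. Sfrp5, Sost and Dkk2 were called in no comparison of time or of chemical against vehicle. Between chemicals at day 4, Sfrp5 was higher with TBT than with MEHP, with overlap (0.48 ± 0.13, adjusted p = 0.0382). Counted by role, 5 of 10 antagonists tested were lower with each of Rosi, TBT, TPhP and MEHP and 2 with LG268, and 0 were higher with any chemical at day 4. That is 50% with each of the first 4 and 20% with LG268, where the shares of all genes called lower were 27.7% with Rosi, 9.42% with TBT, 7.94% with TPhP, 11.7% with MEHP and 2.26% with LG268. Their median difference was -0.83 with Rosi, -0.14 with LG268, -0.56 with TBT, -0.54 with TPhP and -0.52 with MEHP. Genes lower with 4 or 5 chemicals numbered 7 of the 50 (14% against 4.67% of all genes), namely Sfrp2, Wif1, Dkk3, Sfrp1, Rspo2, Ror2 and Fzd9. Those higher with 4 or 5 chemicals numbered 2 of the 50, Fzd4 and Lgr4. That is 4% against 6.66% of all genes, a share below the background.

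Dkk3, a member of the Dickkopf family that differs from its relatives in not binding Lrp coreceptors, had values of 7.10, 7.45, 7.09 and 6.75 with Rosi at day 4, against 8.82, 8.94, 9.88 and 9.75 with vehicle. It read 8.04, 8.33, 7.78 and 7.70 with TBT, 8.86, 7.96, 7.77 and 7.31 with TPhP, and 8.03, 7.65, 7.16 and 6.95 with MEHP. Apart from pool 12 with TPhP, these arrays were below all of vehicle. Dkk3 fell with Rosi (-2.25 ± 0.22, adjusted p = 1.54e-11), with TBT (-1.38 ± 0.22, adjusted p = 8.48e-06), with TPhP (-1.37 ± 0.22, adjusted p = 7.67e-06) and with MEHP (-1.90 ± 0.22, adjusted p = 9.68e-09). With LG268 it read 8.79, 8.88, 9.05 and 9.09, within the range of vehicle in 3 of 4 arrays, and the difference of -0.39 had an interval of -0.83 to 0.05.

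Sfrp1, a secreted Frizzled-related decoy, had values of 8.86, 8.92, 8.72 and 8.39 with Rosi at day 4, against 10.50, 10.48, 11.18 and 10.86 with vehicle (-2.03 ± 0.21, adjusted p = 4.87e-11). It read 9.56, 9.70, 8.86 and 8.51 with MEHP (-1.60 ± 0.21, adjusted p = 1.18e-07). It read 10.16, 10.14, 9.92 and 9.63 with TBT (-0.80 ± 0.21, adjusted p = 0.00443) and 10.33, 10.12, 9.67 and 9.29 with TPhP (-0.90 ± 0.21, adjusted p = 0.00111). None of these groups overlapped vehicle, and the smaller calls were lost without pool 19 (adjusted p = 0.0989 with TBT and 0.0885 with TPhP) and, with TBT, without pool 20 (0.0542). Sfrp1 read 10.55, 10.30, 10.79 and 10.75 with LG268, which overlapped vehicle.

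Sfrp4, another Frizzled-related decoy, had values of 4.61, 5.48, 3.80 and 4.06 with Rosi at day 4, against 7.44, 7.26, 6.08 and 6.00 with vehicle (-2.21 ± 0.29, adjusted p = 1.54e-08). It read 6.16, 5.87, 5.57 and 5.59 with TBT (-0.90 ± 0.29, adjusted p = 0.0211) and 6.30, 6.55, 5.31 and 5.42 with TPhP (-0.80 ± 0.29, adjusted p = 0.042). The Rosi arrays lay below all of vehicle, while those of TBT and TPhP overlapped it, since vehicle itself was split between pools 12 and 15 and pools 19 and 20. The TBT call was lost without pool 12 (adjusted p = 0.0793), 15 (0.12) or 20 (0.0545), and the TPhP call without any one of the 4 pools (adjusted p = 0.063 to 0.135). Sfrp4 read 6.84, 6.26, 5.46 and 5.77 with MEHP and 6.55, 6.60, 6.62 and 6.56 with LG268, which were not called. Dkk4, named after its values were seen, fell with MEHP (-0.44 ± 0.14, adjusted p = 0.0219), with group means of 3.80 for MEHP and 4.24 for vehicle, close to the median of all values. That call was lost without pool 12 (adjusted p = 0.139), 19 (0.0624) or 20 (0.138).

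Of the R-spondins, which are secreted amplifiers of Wnt signals, Rspo2 fell with 4 chemicals and Rspo3 moved in opposite directions with Rosi and TBT. Rspo2 had values of 7.72, 7.84, 7.57 and 7.69 with Rosi at day 4, against 9.27, 9.30, 10.34 and 10.20 with vehicle, and this had the smallest adjusted p of all 13 comparisons of the 50 genes (-2.07 ± 0.19, adjusted p = 6.56e-12). It read 8.60, 8.75, 8.71 and 8.55 with TBT, 9.28, 8.42, 8.94 and 8.69 with TPhP, and 8.59, 8.35, 8.08 and 8.17 with MEHP. All but pool 12 of TPhP were below vehicle. Rspo2 fell with TBT (-1.12 ± 0.19, adjusted p = 3.77e-05), with TPhP (-0.94 ± 0.19, adjusted p = 0.000352) and with MEHP (-1.48 ± 0.19, adjusted p = 1.8e-07). With LG268 it read 9.26, 9.26, 9.73 and 9.69, a difference of -0.29 with an interval of -0.69 to 0.10. At day 1 Rspo2 read 9.26, 9.62, 9.72 and 9.76 with Rosi, against 10.15, 10.13, 10.42 and 10.56 with vehicle (-0.73 ± 0.19, adjusted p = 0.0124), a call lost without pool 19 (adjusted p = 0.0838) or 20 (0.113). With MEHP at day 1 it read 9.21, 9.65, 9.71 and 9.88 (-0.71 ± 0.19, adjusted p = 0.0968, and 0.0281 with the pool as block).

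Rspo3 had values of 8.65, 8.93, 8.97 and 8.99 with TBT at day 4, against 7.17, 7.90, 8.48 and 8.57 with vehicle (0.86 ± 0.20, adjusted p = 0.00189). The TBT arrays were above all of vehicle. With Rosi it read 8.06, 7.27, 7.34 and 7.40 (-0.51 ± 0.20, adjusted p = 0.0335), lower than vehicle in 3 of 4 pools. That call was lost without pool 15 (adjusted p = 0.144), 19 (0.345) or 20 (0.397). It read 8.42, 8.35, 8.55 and 8.62 with LG268, 8.79, 8.23, 8.66 and 8.53 with TPhP, and 8.09, 8.10, 8.40 and 8.51 with MEHP, none of them called. Rspo1 and Rspo4 were called in none of the 13 comparisons of time or of chemical against vehicle.

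Lgr5, an R-spondin receptor and stem cell marker in several epithelia, fell with Rosi on both days. At day 1 it read 4.41, 5.04, 3.88 and 3.99 with Rosi, against 6.72, 6.71, 5.53 and 6.06 with vehicle (-1.92 ± 0.43, adjusted p = 0.00224), a call lost without pool 20 (adjusted p = 0.0759). At day 4 it read 4.07, 4.83, 3.31 and 3.86 with Rosi, against 5.45, 6.23, 5.82 and 5.90 with vehicle (-1.83 ± 0.43, adjusted p = 0.000429). The groups did not overlap on either day, but 3 of the 4 Rosi arrays at day 4 were near or under the median of all values, so the size of the fall is uncertain. With TPhP at day 4 it read 4.48, 4.69, 3.94 and 4.02 (-1.57 ± 0.43, adjusted p = 0.00741), also without overlap and lost without pool 20 (adjusted p = 0.117). A second probe set of Lgr5, with a mean of 3.51, was above the median of all values in 0 arrays. It gave -0.38 with Rosi at day 1 and, at day 4, 0.10 with Rosi and 0.01 with TPhP, so it did not show the day 4 fall.

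The pools differed widely in Lgr5, and the pool as block changed 5 further calls of chemicals against vehicle. With TPhP at day 1 it read 4.36, 5.81, 4.35 and 4.72 (-1.45 ± 0.43, adjusted p = 0.28, and 1.11e-05 with the block). With MEHP at day 1 it read 5.05, 5.85, 4.04 and 4.82 (-1.32 ± 0.43, adjusted p = 0.252, and 5.74e-05 with the block). These arrays were lower than vehicle of the same pool in 4 of 4 pools. With MEHP at day 4 it read 4.94, 5.51, 4.13 and 4.64 (-1.04 ± 0.43, adjusted p = 0.0752, and 7.41e-05 with the block). With TBT it read 5.57, 5.86, 4.46 and 4.86 (-0.66 ± 0.43, adjusted p = 0.3, and 0.0116 with the block). LG268 went the other way, at 6.65, 7.17, 6.11 and 6.24 (0.69 ± 0.43, adjusted p = 0.389, and 0.0191 with the block). Lgr6, the third R-spondin receptor and named after its values were seen, was higher with TBT (0.54 ± 0.14, adjusted p = 0.0043) and MEHP (0.51 ± 0.14, adjusted p = 0.00546) at day 4, overlapping vehicle in both. Without pool 20 the TBT call was lost (adjusted p = 0.0719). With LG268 the Lgr6 difference was 0.41 (adjusted p = 0.0621, and 0.0378 with the block).

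Among the coreceptors, Lrp5, which carries the β-catenin branch and is known for its effect on bone mass, rose with TBT and LG268. It read 8.27, 8.25, 8.46 and 8.32 with TBT and 8.33, 8.04, 8.40 and 8.41 with LG268 at day 4, against 7.43, 7.41, 7.88 and 7.89 with vehicle. Both groups lay above all vehicle arrays, by 0.67 ± 0.12 with TBT (adjusted p = 3.22e-05) and 0.65 ± 0.12 with LG268 (adjusted p = 0.000211). With Rosi it read 7.87, 7.21, 7.61 and 7.60, a difference of -0.08 with an interval of -0.31 to 0.15. It read 7.83, 7.70, 7.95 and 7.85 with TPhP and 7.68, 7.74, 8.08 and 8.06 with MEHP (0.24 ± 0.12, adjusted p = 0.135, and 0.037 with the block). At day 1 Lrp5 read 8.40, 8.20, 8.40 and 8.53 with TBT against 8.08, 7.73, 8.04 and 8.06 with vehicle (0.41 ± 0.12, adjusted p = 0.113, and 0.00673 with the block), and with Rosi the difference was 0.30 (adjusted p = 0.118, and 0.0202 with the block). Its relative Lrp6, named after its values were seen, was higher with Rosi at day 1 (0.52 ± 0.12, adjusted p = 0.00405) and with LG268 at day 4 (0.43 ± 0.12, adjusted p = 0.0277). The Rosi call was lost without pool 19 (adjusted p = 0.0739) or 20 (0.0816), and that of LG268 without pool 15 (0.0552), 19 (0.153) or 20 (0.301). A second probe set of Lrp6 gave differences of 0.38 in both.

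Of the Frizzled receptors besides Fzd4, Fzd3, which serves planar polarity in neurons, was higher with Rosi, at 5.94, 5.55, 6.12 and 6.28 against 3.81, 4.54, 4.85 and 4.87 with vehicle at day 4 (1.45 ± 0.21, adjusted p = 1.99e-07). With TPhP it read 5.23, 4.78, 5.58 and 5.28 (0.70 ± 0.21, adjusted p = 0.0157), which overlapped vehicle. The TPhP call was lost without pool 12 (adjusted p = 0.12), 19 (0.108) or 20 (0.0547). With MEHP it read 4.73, 4.46, 5.57 and 5.49 (0.54, adjusted p = 0.0577, and 0.0209 with the block), and with LG268 and TBT it lay between 4.31 and 4.99.

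Fzd1, a receptor expressed in osteoblasts, rose with LG268, TBT and, at day 1, Rosi. At day 1 it read 8.29, 8.52, 8.62 and 8.61 with Rosi, against 7.69, 7.84, 7.84 and 7.78 with vehicle, with no overlap (0.72 ± 0.14, adjusted p = 0.000276). TPhP gave 8.31, 8.40, 8.29 and 8.35 (0.55, adjusted p = 0.0781, and 0.0124 with the block) and MEHP 8.06, 8.28, 8.38 and 8.26 (0.45, adjusted p = 0.167, and 0.0391 with the block) on that day, all above vehicle. At day 4 it read 8.11, 8.40, 8.56 and 8.48 with LG268 (0.55 ± 0.14, adjusted p = 0.00879) and 8.17, 8.44, 8.48 and 8.41 with TBT (0.54 ± 0.14, adjusted p = 0.0039), against 7.12, 7.72, 8.35 and 8.16 with vehicle. Vehicle spread widely and overlapped both, and without pool 15 the calls were lost (adjusted p = 0.141 with LG268 and 0.0725 with TBT).

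Fzd5, Fzd2 and Fzd9 moved downward. Fzd5, a receptor of the β-catenin branch, read 6.63, 6.50, 6.44 and 6.86 with Rosi (-0.86 ± 0.19, adjusted p = 0.000179) and 6.38, 6.60, 6.43 and 6.57 with MEHP (-0.98 ± 0.19, adjusted p = 0.000117) at day 4, against 6.59, 7.17, 8.08 and 8.05 with vehicle. Pool 12 of vehicle was as low as the chemicals, so both overlapped it. Fzd2 read 4.57, 3.89, 4.11 and 4.19 with Rosi at day 4, against 4.36, 4.39, 5.88 and 5.58 with vehicle (-0.86 ± 0.21, adjusted p = 0.000579), lower in 3 of 4 pools. Vehicle was again low in pools 12 and 15, and the call was lost without pool 19 (adjusted p = 0.067).

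Fzd9, whose loss in mice lowers bone formation, read 5.01, 5.01, 5.13 and 5.06 with Rosi (-0.51 ± 0.14, adjusted p = 0.00192) and 5.05, 5.07, 5.13 and 4.80 with MEHP (-0.55 ± 0.14, adjusted p = 0.00258) at day 4, against 5.36, 5.16, 5.91 and 5.82 with vehicle. Neither overlapped vehicle. It read 5.06, 4.82, 5.38 and 5.17 with TBT (-0.45 ± 0.14, adjusted p = 0.016) and 5.28, 5.19, 4.86 and 4.93 with TPhP (-0.50 ± 0.14, adjusted p = 0.00759). Without pool 20 the calls with MEHP (adjusted p = 0.124), TBT (0.122) and TPhP (0.164) were lost, and without pool 19 those with TBT (0.0714) and TPhP (0.254). In the 13 comparisons of time or of chemical against vehicle, Fzd6 was called in none, and Fzd7 and Fzd8 only in vehicle over time. Between chemicals at day 4 the last 2 were called in several pairs. Both were higher with LG268 than with Rosi, Fzd7 by 0.53 ± 0.11 (adjusted p = 0.000102) and Fzd8 by 1.14 ± 0.24 (adjusted p = 9.92e-05).

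The receptor tyrosine kinases Ror1 and Ror2, which take Wnt5a as ligand, were lower at day 4 with several chemicals. Ror2 read 6.15, 5.88, 6.30 and 6.01 with Rosi (-1.21 ± 0.20, adjusted p = 1.81e-06) and 5.91, 6.27, 5.99 and 5.72 with MEHP (-1.32 ± 0.20, adjusted p = 2.08e-06), against 6.49, 7.00, 7.78 and 7.88 with vehicle. It read 6.12, 6.37, 6.43 and 6.48 with TBT (-0.94 ± 0.20, adjusted p = 0.000531) and 7.08, 6.24, 6.16 and 6.06 with TPhP (-0.90 ± 0.20, adjusted p = 0.000695). The TPhP value of pool 12 was the only one of these within the range of vehicle, and that call was lost without pool 19 (adjusted p = 0.102) or 20 (0.121). With LG268 Ror2 read 6.72, 6.58, 6.98 and 6.92 and was not called.

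Ror1 read 5.55, 5.52, 4.84 and 4.86 with Rosi at day 4, against 5.84, 6.25, 7.01 and 7.06 with vehicle (-1.35 ± 0.23, adjusted p = 4.35e-06). With MEHP it read 5.87, 5.66, 5.34 and 5.60 (-0.92 ± 0.23, adjusted p = 0.00246), lower in 3 of 4 pools. The Rosi arrays were below all of vehicle, and the MEHP call was lost without pool 19 (adjusted p = 0.125) or 20 (0.0776). With LG268 it read 6.52, 6.73, 6.89 and 6.98, with TBT 6.19, 6.39, 6.14 and 6.24, and with TPhP 6.68, 5.92, 6.08 and 5.85, none of them called.

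Few ligands were called. Of 18 ligands tested, 4 were called at day 4 with Rosi, 0 with LG268, 1 with TBT and 2 with each of TPhP and MEHP. Wnt8b, whose limit is given below, counts among those with Rosi, TPhP and MEHP. That is 22.2% with Rosi, 0% with LG268, 5.56% with TBT and 11.1% with TPhP and MEHP, below the shares of all genes called (49.1%, 6.47%, 20.1%, 18.9% and 23.8% with Rosi, LG268, TBT, TPhP and MEHP). Many ligands lay near the median of all values, such as Wnt1, Wnt2, Wnt6 and Wnt8a with means of 4.16, 4.12, 3.99 and 3.86. Others lay higher, such as Wnt4 at 5.87 and Wnt11 at 5.96. The part of low values in these shares was not tested. Wnt11, a ligand of branches that do not need β-catenin, read 5.44, 5.01, 5.37 and 5.16 with Rosi at day 4, against 5.49, 5.97, 6.44 and 6.43 with vehicle, with no overlap (-0.84 ± 0.16, adjusted p = 3.11e-05). With LG268 it read 6.60, 6.39, 6.54 and 6.73 (0.48 ± 0.16, adjusted p = 0.0674, and 0.0454 with the block). It read 6.32, 6.35, 5.99 and 6.34 with TBT, 6.24, 5.77, 5.83 and 5.73 with TPhP, and 5.64, 5.67, 5.99 and 5.90 with MEHP. Those 3 groups overlapped vehicle and were not called.

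Wnt8b, a ligand known from the forebrain, read 4.15, 3.61, 4.75 and 5.10 with Rosi at day 4, against 3.03, 3.22, 3.20 and 2.86 with vehicle (1.33 ± 0.22, adjusted p = 1.85e-06). It was also higher with TPhP, at 3.57, 3.53, 4.44 and 3.99 (0.81 ± 0.22, adjusted p = 0.00589), and with MEHP, at 3.56, 3.22, 4.22 and 4.22 (0.73 ± 0.22, adjusted p = 0.0108). All vehicle arrays were under the median of all values, as were 3 of 4 with TPhP and 2 of 4 with MEHP, so the sizes are uncertain. Wnt8b passed the filter on low values only through these groups: its 6 arrays above the median were 3 with Rosi, 1 with TPhP and 2 with MEHP at day 4, so its place among the genes tested rests on the groups in which it was high. The TPhP call was lost without pool 19 (adjusted p = 0.124) or 20 (0.0653), and the MEHP call likewise (0.12 and 0.183). Wnt16, a ligand with a role in cortical bone, read 3.78, 3.30, 4.03 and 3.55 with Rosi (-0.51 ± 0.16, adjusted p = 0.00675), 3.59, 3.67, 3.77 and 3.35 with TBT (-0.58 ± 0.16, adjusted p = 0.00764) and 3.23, 3.83, 3.44 and 3.66 with MEHP (-0.63 ± 0.16, adjusted p = 0.00244), against 4.27, 4.15, 4.01 and 4.27 with vehicle. All of the chemicals' arrays were under the median of all values, the Rosi call was lost without pool 15 (adjusted p = 0.0783) and that of TBT without pool 20 (0.0684).

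Wnt10b, a ligand known to block adipogenesis, fell with Rosi at day 1, at 4.03, 4.17, 4.20 and 4.37 against 4.70, 4.86, 4.55 and 4.77 with vehicle (-0.52 ± 0.15, adjusted p = 0.0165). The groups did not overlap. At day 4 it read 4.11, 3.87, 3.87 and 4.15 with Rosi (-0.37 ± 0.15, adjusted p = 0.0311) and 4.11, 3.93, 3.91 and 3.63 with TPhP (-0.47 ± 0.15, adjusted p = 0.0167), against 3.94, 4.61, 4.45 and 4.48 with vehicle. Pool 12 of vehicle was within the range of both, which makes 3 of 4 pools lower. At day 4, 2 of 4 arrays with Rosi, 3 of 4 with TPhP and 1 of 4 with vehicle were at or under the median of all values, so the sizes are uncertain. Each of these calls was lost without pool 19 or pool 20 (adjusted p = 0.0782 to 0.24), and those of Rosi also without pool 12 at day 1 (0.092) and pool 15 at day 4 (0.137). Wnt4, named after its values were seen, was higher with Rosi at day 1 (0.77 ± 0.24, adjusted p = 0.0364), a call lost without pool 15 (adjusted p = 0.0594), 19 (0.201) or 20 (0.254). Wnt1, Wnt2, Wnt3a, Wnt5a, Wnt6, Wnt7a, Wnt7b, Wnt8a, Wnt9a and Wnt9b were called in no comparison of time or of chemical against vehicle. Between chemicals at day 4, Wnt5a was higher with LG268 than with TPhP (0.40 ± 0.15, adjusted p = 0.04899).

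In the comparisons of time or of chemical against vehicle, Wnt5b, Sfrp5 and Wnt2b lay just outside the threshold. Wnt5b read 4.58, 4.91, 5.24 and 5.14 with vehicle at day 4, against 4.84, 4.43, 4.57 and 4.68 in naive cells (0.34 ± 0.14, adjusted p = 0.0546, and 0.04998 with the block). Sfrp5 read 3.84, 4.49, 4.27 and 4.29 with TBT against 4.09, 3.69, 3.87 and 3.89 with vehicle at day 4 (0.34 ± 0.13, adjusted p = 0.0589, and 0.0481 with the block). Wnt2b read 4.67, 4.37, 4.97 and 4.95 with LG268 against 4.39, 4.22, 4.42 and 4.18 with vehicle at day 4 (0.44 ± 0.14, adjusted p = 0.0593, and 0.0453 with the block). The genes just inside were Dkk1, with an adjusted p of 0.0484 for vehicle at day 4 against day 1, and Wnt4 above.

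The remaining differences called only with the pool as block were these. In vehicle at day 4 against naive cells, Sfrp1 gave 0.52 (adjusted p = 0.0551, and 0.0205 with the block), Fzd3 -0.51 (0.0651 and 0.0258), Fzd8 0.54 (0.0888 and 0.049) and Wnt4 0.44 (0.165 and 0.0366). Against vehicle, Rosi gave -0.64 for Fzd2 at day 1 (adjusted p = 0.0538, and 0.0359 with the block) and, at day 4, -0.52 for Fzd8 (0.0709 and 0.0397), -0.23 for Fzd7 (0.0777 and 0.0473) and -0.50 for Wnt4 (0.0811 and 0.0109). At day 4 the difference of Fzd9 with LG268 was -0.43 (adjusted p = 0.0514, and 0.0372 with the block) and that of Wnt16 with TPhP was -0.42 (0.0589 and 0.0439). With TBT those of Wnt10a and Wnt10b were 0.38 (adjusted p = 0.053, and 0.0347 with the block) and -0.36 (0.0717 and 0.0435). The block added these calls and removed none among the comparisons with vehicle or naive cells.

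In vehicle, the change with time asks what the cultures did without a chemical, although DMSO and time in culture, and by the growth protocol the medium too, change together against naive cells. At day 4, 6 genes were higher and 6 lower than in naive cells (24% against 28.9% of all genes, 17.4% higher and 11.5% lower). With the block 18 were called, a count that does not stand against the 28.9%, which is without the block. At day 1, 5 genes were higher and 0 lower than in naive cells (10% against 17.7% of all genes, 12.9% higher and 4.86% lower). From day 1 to day 4 of vehicle, 4 were higher and 2 lower (12% against 12.9%, of which 4.6% higher and 8.29% lower). Taken over both directions, these shares were below those of all genes. By direction this did not hold for the genes higher from day 1 to day 4, nor for those lower at day 4 than in naive cells. Osteoclast markers (5 of 5) and osteocyte markers (3 of 4) were higher, and smooth muscle (3 of 4) and B cell markers (3 of 3) lower, in vehicle at day 4 than in naive cells. Their part in the results below was not tested.

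Lef1, the nuclear partner of β-catenin, read 4.39, 4.24, 4.21 and 4.15 in naive cells, 4.17, 4.12, 4.05 and 4.21 with vehicle at day 1 and 5.79, 5.12, 4.75 and 4.54 with vehicle at day 4. Vehicle at day 4 lay above both other groups, by 0.80 ± 0.17 against naive cells (adjusted p = 0.000478) and 0.91 ± 0.17 against day 1 (adjusted p = 0.00042). With LG268 at day 4 Lef1 read 4.78, 4.04, 4.32 and 4.29 (-0.69 ± 0.17, adjusted p = 0.00976), which overlapped vehicle. That call was lost without pool 15 (adjusted p = 0.176). Axin2, the feedback inhibitor and common reporter of β-catenin signalling, was named after its values were seen. It was higher with vehicle at day 4 than in naive cells (means of 5.36 and 4.90; 0.46 ± 0.13, adjusted p = 0.0042) and with Rosi than with vehicle at day 4 (means of 5.74 and 5.36; 0.38 ± 0.13, adjusted p = 0.00974). These groups overlapped, and the calls were lost without pool 19 (adjusted p = 0.156) and pool 12 (0.175), in that order. A second Axin2 probe set gave smaller differences of 0.12 and 0.21.

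Wif1 read 5.15, 4.74, 4.67 and 4.29 in naive cells, 5.24, 5.58, 4.75 and 4.97 with vehicle at day 1 and 5.05, 6.83, 6.45 and 6.99 with vehicle at day 4. Vehicle at day 4 was higher than both, by 1.62 ± 0.30 against naive cells (adjusted p = 5.03e-05) and 1.20 ± 0.30 against day 1 (adjusted p = 0.00501). Pool 12 was not higher, so 3 of 4 pools were higher and the groups overlapped. Without pool 19 (adjusted p = 0.107) or 20 (0.128) the difference from day 1 was not called. Sfrp4 read 5.97, 6.15, 6.02 and 6.19 in naive cells, 5.66, 5.34, 4.97 and 5.32 with vehicle at day 1 and 7.44, 7.26, 6.08 and 6.00 with vehicle at day 4. Vehicle at day 4 lay above all day 1 arrays (1.37 ± 0.29, adjusted p = 0.00101), while day 1 against naive cells gave -0.76 ± 0.29 (adjusted p = 0.0583, and 0.0196 with the block) and day 4 against naive cells 0.61 (adjusted p = 0.104, and 0.0462 with the block).

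Sfrp2 read 7.45, 7.55, 8.84 and 8.95 with vehicle at day 4, against 8.72, 8.79, 8.82 and 8.78 in naive cells (-0.58 ± 0.23, adjusted p = 0.0477). It was lower in pools 12 and 15 only, and the call was lost without pool 12 (adjusted p = 0.306) or 15 (0.325). Rspo2 was lower with vehicle at day 4, at 9.27, 9.30, 10.34 and 10.20, than in naive cells, at 10.56, 10.33, 10.39 and 10.53 (-0.67 ± 0.19, adjusted p = 0.00733), in a call lost without pool 15 (adjusted p = 0.0862). Day 4 against day 1 of vehicle gave -0.54 for Rspo2 (adjusted p = 0.0598, and 0.0272 with the block). Lgr4 read 7.26, 7.32, 7.39 and 7.35 with vehicle at day 1, all above the naive values of 6.91, 6.88, 6.38 and 6.65 (0.63 ± 0.13, adjusted p = 0.000811). Dkk1, a Dickkopf antagonist of Lrp5 and Lrp6, was near the median of all values, with means of 3.95 at day 4 and 3.50 at day 1 of vehicle (0.46 ± 0.16, adjusted p = 0.0484). It was named after its values were seen, and the call was lost without pool 12 (adjusted p = 0.076), 15 (0.212) or 19 (0.29).

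Fzd7, a receptor of stem and progenitor cells in several tissues, read 7.94, 8.21, 7.73 and 7.89 in naive cells, 7.79, 7.62, 7.82 and 7.84 with vehicle at day 1 and 7.43, 7.20, 7.61 and 7.39 with vehicle at day 4. It was lower at day 4 than in naive cells (-0.54 ± 0.11, adjusted p = 0.000246) and than at day 1 (-0.36 ± 0.11, adjusted p = 0.0245), without overlap. The difference from day 1 was lost without any one of the 4 pools (adjusted p = 0.0537 to 0.167). Fzd2 read 5.11, 5.81, 5.35 and 5.36 in naive cells, 5.79, 5.78, 6.16 and 6.24 with vehicle at day 1 and 4.36, 4.39, 5.88 and 5.58 with vehicle at day 4. Day 4 of vehicle was lower than day 1 (-0.94 ± 0.21, adjusted p = 0.00195), with overlap, and day 1 was higher than naive cells in 3 of 4 pools (0.58 ± 0.21, adjusted p = 0.0459). The last of these was lost without pool 12 (adjusted p = 0.0715), 19 (0.224) or 20 (0.297).

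Lrp5 read 7.43, 7.41, 7.88 and 7.89 with vehicle at day 4, all below the naive values of 8.30, 8.15, 8.23 and 8.15 (-0.56 ± 0.12, adjusted p = 0.000258), and day 4 against day 1 gave -0.32 (adjusted p = 0.0552, and 0.00787 with the block). The LG268 and TBT arrays of day 4, between 8.04 and 8.46, spanned the naive range. Wnt10a, a ligand related to Wnt10b, read 4.16, 4.45, 4.23 and 4.51 with vehicle at day 4 against 5.06, 4.86, 4.93 and 4.84 in naive cells (-0.58 ± 0.14, adjusted p = 0.00192). Wnt10b was likewise lower than its naive values of 4.77, 5.30, 4.87 and 4.83 (-0.57 ± 0.15, adjusted p = 0.00251). Neither ligand overlapped between vehicle at day 4 and naive cells. Fzd9 was higher at day 4 than its naive values of 5.12, 4.87, 5.25 and 4.78 (0.56 ± 0.14, adjusted p = 0.00194), a call lost without pool 20 (adjusted p = 0.0879).

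Ror1 read 6.70, 6.53, 6.32 and 6.55 with vehicle at day 1, against 6.24, 6.28, 5.52 and 5.37 in naive cells, without overlap (0.67 ± 0.23, adjusted p = 0.0386). At day 4 vehicle differed from naive cells by 0.68 ± 0.23 (adjusted p = 0.0223) with only 2 of 4 pools higher. Both calls were lost without pool 19 (adjusted p = 0.179 and 0.327) or 20 (0.302 and 0.412). Fzd1 was higher with vehicle at day 1 than its naive values of 7.44, 7.39, 7.32 and 7.43, without overlap (0.39 ± 0.14, adjusted p = 0.0402), and higher at day 4 with overlap (0.44 ± 0.14, adjusted p = 0.0129). Without pool 15, 19 or 20 neither was called (adjusted p = 0.051 to 0.314). Fzd8, named after its values were seen, was higher with vehicle at day 1 than in naive cells (0.73 ± 0.24, adjusted p = 0.0292), a call lost without pool 15 (adjusted p = 0.053), 19 (0.185) or 20 (0.154).

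**Figure D3:**
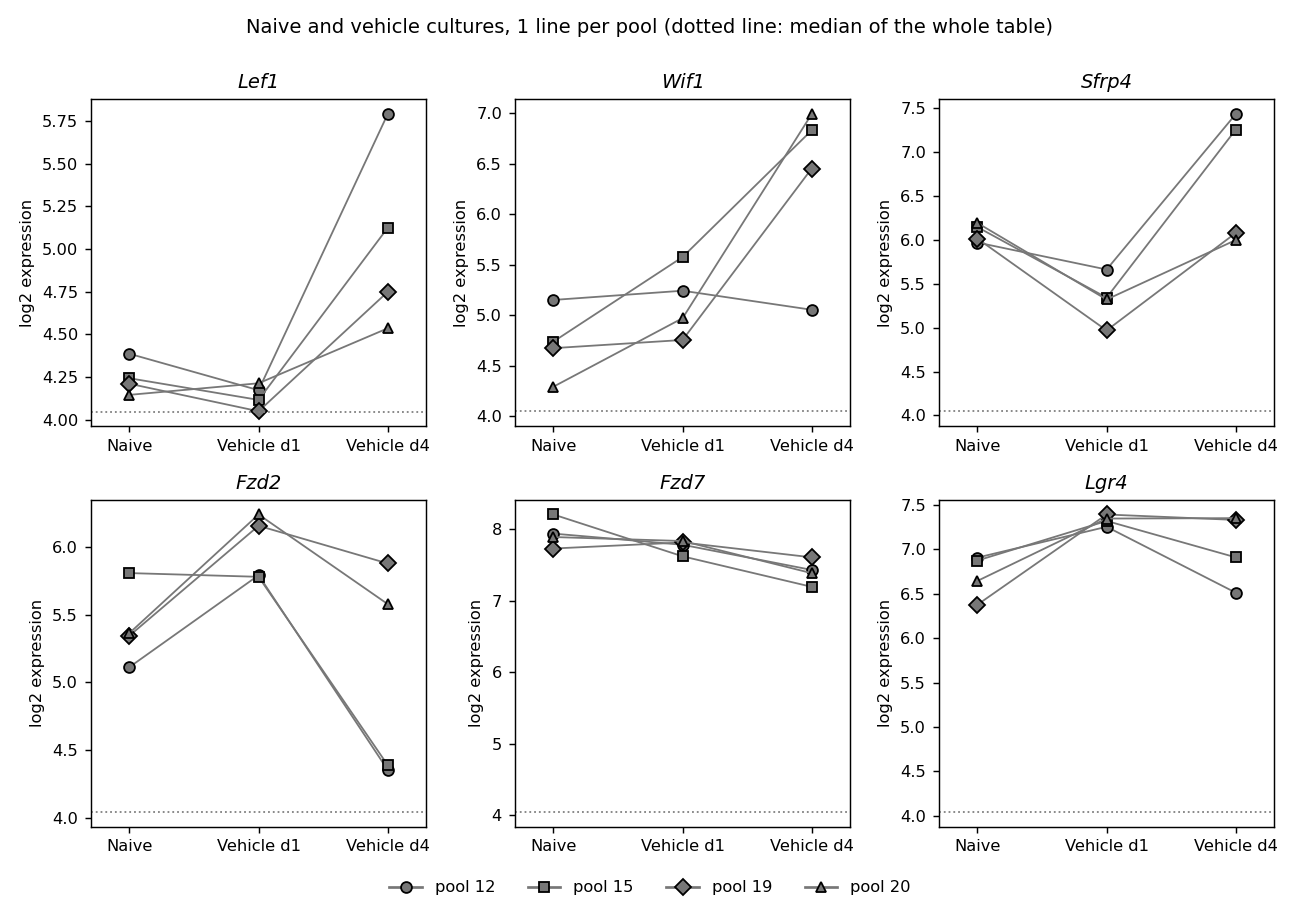
Log2 value of Lef1, Wif1, Sfrp4, Fzd2, Fzd7 and Lgr4 in naive cells and with vehicle at day 1 and day 4, with a line for each pool. Lef1 was above its other values in 4 of 4 pools at day 4, Wif1 was higher in 3 of 4, and Fzd2 at day 4 was lower in pools 12 and 15 than in pools 19 and 20.

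The pools were unevenly placed in vehicle at day 4, the arrays every chemical of that day was set against. Pools 12 and 15 were both below pools 19 and 20 in 22 of the 50 genes and both above them in 2, against 30.3% and 28.5% of all genes. With LG268 at day 4 the counts were 25 and 4 (21.7% and 23.3% of all genes), and with Rosi 11 and 11 (21.1% and 26.1%). They were 18 and 8 with both TBT (23.7% and 26.5%) and MEHP (25.6% and 30.3%), and 11 and 13 with TPhP (21.6% and 26.5%). At day 1 the counts were 23 and 10 with TBT (24.3% and 31.6%), 18 and 12 with LG268 (19.2% and 25.4%), 13 and 6 with Rosi (17.3% and 23.2%), 7 and 10 with TPhP (12.1% and 18.1%), 7 and 11 with MEHP (19.7% and 18.5%) and 21 and 7 with vehicle (23.4% and 25.1%). In naive cells they were 3 and 20 (14.6% and 32.3%). Calls that rest on particular pools are marked as such above.

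Among the chemicals themselves, 10 pairs were compared on each day, each adjusted over all genes tested. Rosi and LG268 are the one pair for which the labels give the same dose. At day 4 LG268 differed from Rosi in 25 of the 50 genes, 20 higher and 5 lower (47.8% of all genes differed, 26.3% higher and 21.5% lower). Rspo2 (1.78 ± 0.19, adjusted p = 3.32e-10), Dkk3 (1.85, adjusted p = 1.89e-09) and Sfrp1 (1.88 ± 0.21, adjusted p = 3.7e-10) were higher with LG268 than with Rosi. So were Sfrp4 (2.10 ± 0.29, adjusted p = 4.88e-08), Lgr5 (2.52 ± 0.43, adjusted p = 4.34e-06) and Wnt11 (1.32 ± 0.16, adjusted p = 5.92e-09). Fzd4 was lower with LG268 than with Rosi (-1.20 ± 0.23, adjusted p = 2.05e-05), as was Lgr4 (-0.39, adjusted p = 0.0147), which was lost without pool 12 (adjusted p = 0.0574) or 20 (0.0611). At day 1 LG268 and Rosi differed in 7 of the 50 genes (6.99% of all genes). With the pool as block LG268 and Rosi also differed at day 1 in Fzd2 (0.63, adjusted p = 0.0575, and 0.0381 with the block) and Wnt4 (-0.68, adjusted p = 0.0806, and 0.00533 with the block), and at day 4 in Lgr6 (0.32, adjusted p = 0.0561, and 0.0432 with the block).

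The doses of the other chemicals differ or are not in the labels, so the next differences compare cultures and not potencies. TBT differed from Rosi in 19 of the 50 genes at day 4 (38.1% of all genes), TPhP in 10 (28.2%) and MEHP in 11 (26.1%). Rspo3 was higher than with Rosi with each of them, by 1.37 ± 0.20 with TBT (adjusted p = 7.01e-07), 1.03 with TPhP (adjusted p = 0.000156) and 0.76 with MEHP (adjusted p = 0.00454), the last lost without pool 19 (adjusted p = 0.053) or 20 (0.0884). Lrp5 was higher with TBT than with Rosi (0.75 ± 0.12, adjusted p = 1.22e-06), and TBT and LG268 differed in it by 0.03 with an interval of -0.21 to 0.26. Lrp5 was also higher with LG268 than with TPhP (0.47, adjusted p = 0.00273) and than with MEHP (0.41, adjusted p = 0.00811). LG268 differed from TPhP in 18 genes (18.3% of all genes) and from MEHP in 20 (21.1%). Called only with the block were Sfrp4 between LG268 and TPhP (0.69, adjusted p = 0.0895, and 0.0338 with the block) and Wif1 between LG268 and MEHP (0.78, adjusted p = 0.0534, and 0.0246 with the block). Between TPhP and Rosi these were Wnt8b (-0.52, adjusted p = 0.0699, and 0.0242 with the block), Lrp6 (0.29, 0.075 and 0.0429), Lrp5 (0.26, 0.0882 and 0.0194) and Wnt4 (0.46, 0.161 and 0.0318). The limit on Wnt8b given above, that it passed the filter only through such groups, holds here too. Between MEHP and Rosi it was Lgr5 (0.79, adjusted p = 0.191, and 0.00209 with the block).

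TBT and LG268 differed in 3 of the 50 genes at day 4 (3.35% of all genes, and 8 of the 50 with the block). Dkk3 (-0.99 ± 0.22, adjusted p = 0.00602), Rspo2 (-0.83 ± 0.19, adjusted p = 0.00922) and Sfrp2 (-0.77 ± 0.23, adjusted p = 0.0447) were lower with TBT. All 3 were lost without pool 19 (adjusted p = 0.198 to 0.519) or 20 (0.169 to 0.299), and Sfrp2 also without pool 12 (0.0665) or 15 (0.0515). Lgr5 gave -1.35 ± 0.43 between them (adjusted p = 0.0775, and 2.58e-05 with the block). The other 4 that the block added were Wnt2b (-0.48, adjusted p = 0.0575, and 0.0447 with the block), Sfrp1 (-0.64, 0.0784 and 0.0225), Wnt10b (-0.45, 0.0832 and 0.0425) and Sfrp4 (-0.79, 0.136 and 0.0471). TBT differed from TPhP in 3 genes (2.31% of all genes, and 5 of the 50 with the block) and from MEHP in 4 (1.97%). The 2 that the block added between TBT and TPhP were Fzd1 (0.41, adjusted p = 0.113, and 0.036 with the block) and Lgr5 (0.90, 0.345 and 0.0041).

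TPhP and MEHP differed in Sfrp2 alone of the 50 genes (0.0134% of all genes). It was higher with TPhP, at 7.67, 6.97, 7.17 and 6.64, than with MEHP, at 5.96, 6.47, 5.38 and 5.72 (1.22 ± 0.23, adjusted p = 0.0181), with no overlap. That call was lost without pool 12 (adjusted p = 0.504), 19 (1) or 20 (0.224). In Fzd4 the differences were 0.09 between TPhP and MEHP (interval -0.37 to 0.54), -0.02 between TBT and TPhP (-0.48 to 0.43) and 0.07 between TBT and MEHP (-0.39 to 0.52). At day 1 LG268 differed from TPhP in 2 genes (0.342% of all genes, and 3 with the block) and from MEHP in 0 (0.228%, and 2 with the block). On that day TBT differed from Rosi in 3 genes (2.61%), TPhP in 2 (2.32%) and MEHP in 1 (1.88%, and 3 with the block). The pairs of TBT with LG268 (0%), TPhP (0.0537%) and MEHP (0.0335%) and that of TPhP with MEHP (0%) gave 0 of the 50 genes at day 1 with limma. At an unadjusted p under 0.05 these 4 pairs gave 2, 5, 2 and 3 genes in the same order, and with the block 0, 1, 1 and 0.

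The block's added calls between chemicals at day 1 were mostly of Lgr5 and Wnt4. Lgr5 was the one gene for TBT against TPhP (1.17, adjusted p = 1, and 0.00123 with the block) and for TBT against MEHP (1.04, adjusted p = 1, and 0.0119 with the block). For LG268 against MEHP it was called (1.82, adjusted p = 0.0527, and 1.51e-07 with the block) beside Wnt10b (0.58, 0.078 and 0.0271), and for LG268 against TPhP the added gene was Sfrp4 (1.0, 0.164 and 0.0315). Against Rosi, Wnt4 was added with TBT (-0.63, adjusted p = 0.195, and 0.0218 with the block) and with MEHP (-0.64, 0.197 and 0.0241), and Sfrp1 with MEHP (-0.62, 0.12 and 0.0385).

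**Figure D4:**
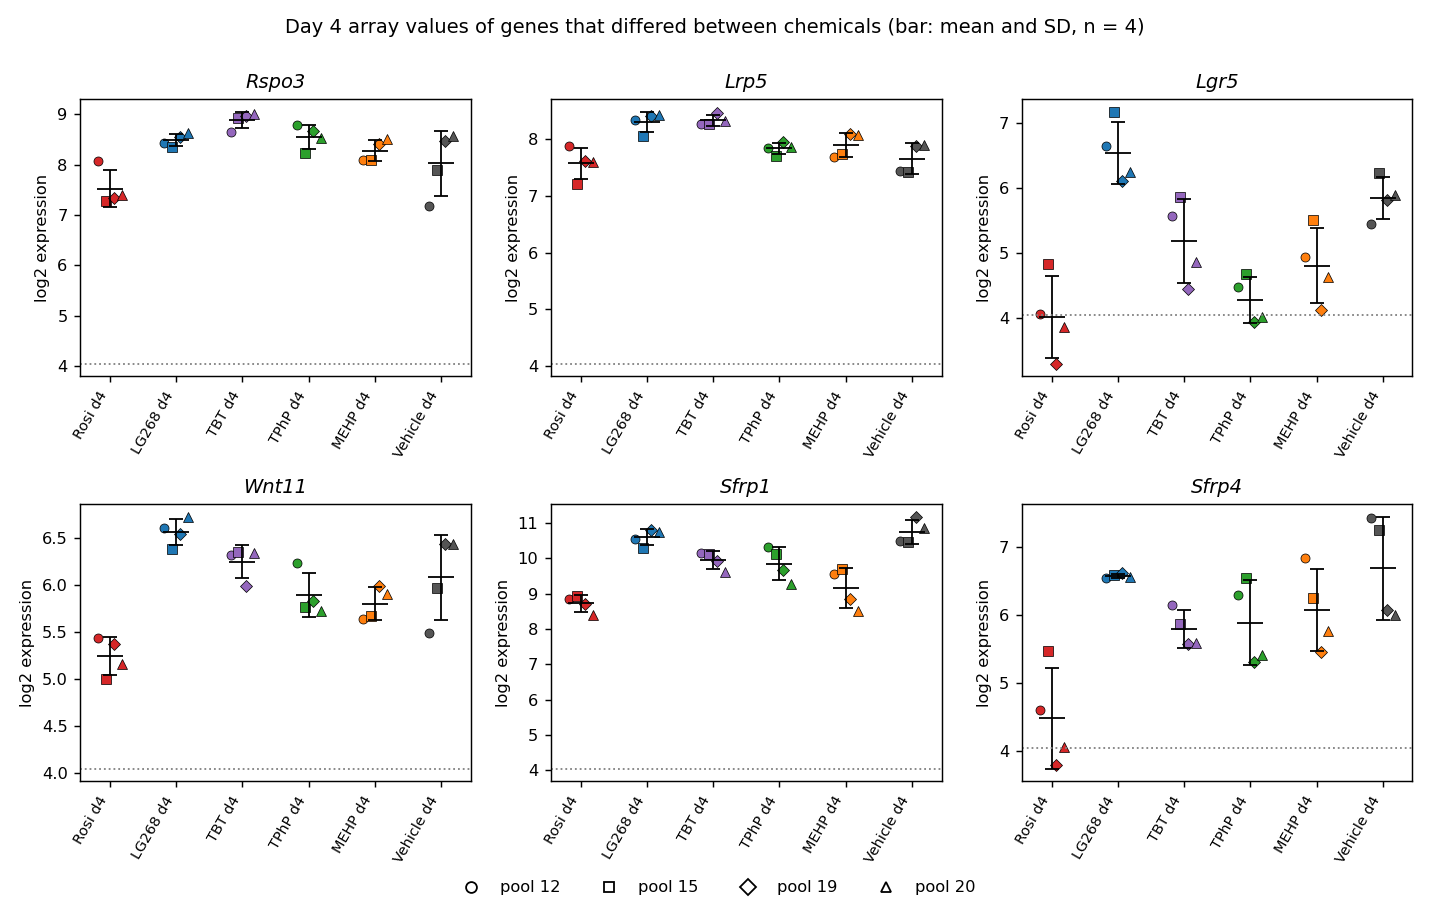
Log2 value of Rspo3, Lrp5, Lgr5, Wnt11, Sfrp1 and Sfrp4 in every array at day 4 for Rosi, LG268, TBT, TPhP, MEHP and vehicle, with mean and SD (bars). Lrp5 was high with LG268 and TBT, Lgr5 was low with Rosi and TPhP, and Sfrp1 and Sfrp4 were lowest with Rosi. Lgr5 had its highest mean with LG268, which overlapped vehicle and was called against it only with the pool as block.

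The interaction of chemical and day tests whether an effect at day 4 differed from that at day 1. With Rosi it was called for 16 of the 50 genes (30% of all genes), with MEHP for 6 (6.36%, and 8 with the block), with TBT for 2 (1.77%, and 4 with the block), with TPhP for 1 (4.49%, and 3 with the block) and with LG268 for 0 (0.0805%, 7 at an unadjusted p under 0.05, and 0 with the block). The difference of Sfrp1 between Rosi and vehicle was -2.03 at day 4 and 0.44 at day 1, where it was not called, a change of -2.47 (adjusted p = 3.72e-08). That of Dkk3 was -2.25 at day 4 and -0.61 at day 1, not called at day 1 (change of -1.64, adjusted p = 6.78e-05), and that of Rspo2 was -2.07 and -0.73, called on both days (change of -1.35, adjusted p = 0.000192). The change in the Rosi effect was not called for Fzd4, Lgr4 or Lgr5. Fzd4 had a larger effect at day 4 with TBT (1.22, adjusted p = 0.0328), TPhP (1.21, adjusted p = 0.0195) and MEHP (1.03, adjusted p = 0.0432), each lost without pool 19 or 20 (adjusted p = 0.0692 to 0.372). The block added changes for Lrp5 with Rosi (-0.38, adjusted p = 0.0712, and 0.0139 with the block). With MEHP it added Rspo2 (-0.77, 0.0876 and 0.0392) and Wnt8b (0.83, 0.106 and 0.0331), for which the limit of its filter given above holds. With TBT it added Sfrp1 (-0.91, 0.0897 and 0.0276) and Wif1 (-1.25, 0.106 and 0.0462). With TPhP it added Dkk3 (-1.0, 0.051 and 0.0417) and Ror2 (-0.90, 0.0515 and 0.0266).

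Other genes of the pathway were counted from lists of known members. Their counts stand against the shares of all genes called at day 4, higher and lower: 21.3% and 27.7% with Rosi, 4.21% and 2.26% with LG268, 10.6% and 9.42% with TBT, 11% and 7.94% with TPhP, and 12.1% and 11.7% with MEHP. Of 20 tested genes of Wnt secretion and receptor turnover, 3 were higher and 9 lower with Rosi at day 4, 0 and 0 with LG268, 2 and 5 with TBT, and 2 and 7 with TPhP and with MEHP alike. The shares of the list called lower were thus 45% with Rosi, 25% with TBT and 35% with TPhP and MEHP. Tspan12, a tetraspanin that assists Fzd4 in Norrin signalling, was higher with Rosi (2.29 ± 0.20, adjusted p = 7.12e-13), TBT (1.35 ± 0.20, adjusted p = 2.29e-06), TPhP (1.64 ± 0.20, adjusted p = 3.22e-08) and MEHP (1.64 ± 0.20, adjusted p = 2.45e-08). Cthrc1, a secreted glycoprotein that binds Wnt and Frizzled proteins, fell with TBT (-1.79 ± 0.33, adjusted p = 9.15e-05), with TPhP (-2.10 ± 0.33, adjusted p = 5.76e-06) and with MEHP (-2.09 ± 0.33, adjusted p = 4.83e-06). Kremen1, a Dickkopf receptor, fell with Rosi (-1.05 ± 0.13, adjusted p = 1.28e-08). In vehicle at day 4 against naive cells 3 of these 20 genes were higher and 4 lower (15% and 20%, against 17.4% and 11.5% of all genes), with the antagonist Apcdd1 at 1.83 ± 0.28 (adjusted p = 2.91e-06).

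Of 27 genes of the destruction complex and Dishevelled, 6 were higher and 7 lower with Rosi at day 4, 2 and 1 with LG268, 5 and 2 with TBT, 2 and 3 with TPhP, and 3 and 4 with MEHP. With Rosi that is 22.2% higher and 25.9% lower, near the 21.3% and 27.7% of all genes, and with MEHP 11.1% and 14.8%, near 12.1% and 11.7%. Nkd2, a Dishevelled-binding inhibitor, fell with Rosi (-2.32 ± 0.29, adjusted p = 1.07e-08), with TBT (-1.44 ± 0.29, adjusted p = 0.000405), with TPhP (-1.49 ± 0.29, adjusted p = 0.00019) and with MEHP (-1.88 ± 0.29, adjusted p = 4.35e-06). The gene for β-catenin itself, Ctnnb1, fell with TBT (-0.42 ± 0.09, adjusted p = 0.00034), with TPhP (-0.42 ± 0.09, adjusted p = 0.000338) and with MEHP (-0.48 ± 0.09, adjusted p = 3.5e-05). Nkd1, the relative of Nkd2, was higher with LG268 (0.92 ± 0.21, adjusted p = 0.0039).

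Of 23 nuclear partners of β-catenin, 2 were higher and 6 lower with Rosi, 4 and 1 with LG268, 3 and 0 with TBT, 2 and 0 with TPhP, and 2 and 1 with MEHP. With Rosi that is 8.7% higher and 26.1% lower, against 21.3% and 27.7% of all genes, and with LG268 17.4% and 4.35%, against 4.21% and 2.26%. Tle1, a Groucho corepressor, was higher with Rosi (1.67 ± 0.19, adjusted p = 5.28e-10), TBT (0.61 ± 0.19, adjusted p = 0.0172), TPhP (0.91 ± 0.19, adjusted p = 0.000303) and MEHP (1.02 ± 0.19, adjusted p = 4.8e-05). Tcf7l2, a relative of Lef1, was higher with LG268 (0.45 ± 0.12, adjusted p = 0.0185) and TBT (0.60 ± 0.12, adjusted p = 0.000428). Of 31 genes of the planar polarity and calcium branches, 3 were higher and 10 lower with Rosi, 1 and 1 with LG268, 3 and 3 with TBT, 3 and 4 with TPhP, and 3 and 3 with MEHP. With Rosi that is 9.68% higher and 32.3% lower, against 21.3% and 27.7% of all genes, with the phospholipase Plcb1 at 1.97 ± 0.20 (adjusted p = 3.21e-11).

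Of 30 common targets of β-catenin signalling, 4 were higher and 17 lower with Rosi at day 4, 3 and 3 with LG268, 2 and 9 with TBT, 1 and 11 with TPhP, and 1 and 12 with MEHP. The shares called lower were 56.7% with Rosi, 10% with LG268, 30% with TBT, 36.7% with TPhP and 40% with MEHP, where those of all genes were 27.7%, 2.26%, 9.42%, 7.94% and 11.7% in the same order. The median difference of these 30 was -0.44 with Rosi, -0.06 with LG268, -0.28 with TBT, -0.35 with TPhP and -0.36 with MEHP, while that of all genes lay between -0.05 and -0.02. The activin inhibitor Fst (-1.75 ± 0.19, adjusted p = 1.78e-10) and the gap junction gene Gja1 (-1.73 ± 0.21, adjusted p = 2.85e-09) were lower with Rosi. The matricellular gene Ccn4 fell with TBT (-1.64 ± 0.34, adjusted p = 0.000412) and with TPhP (-1.56 ± 0.34, adjusted p = 0.000629). Met, the hepatocyte growth factor receptor, went the other way, at 0.97 ± 0.27 with LG268 (adjusted p = 0.0201), 1.45 ± 0.27 with TBT (adjusted p = 9.55e-05), 1.64 ± 0.27 with TPhP (adjusted p = 1.23e-05) and 1.50 ± 0.27 with MEHP (adjusted p = 3.59e-05).

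Several of these genes are also used by osteoblasts, and the osteoblast markers themselves were lower in 5 of 6 with each of Rosi, TBT and MEHP, 4 of 6 with TPhP and 1 of 6 with LG268 at day 4. The adipocyte markers were higher in 5 of 5 with Rosi, TBT, TPhP and MEHP and 4 of 5 with LG268. Endothelial markers were higher in 5 of 5 with TBT, 3 of 5 with MEHP, 2 of 5 with LG268, 1 of 5 with Rosi and 0 of 5 with TPhP. Macrophage markers were lower in 6 of 6 with Rosi, at 9.08 to 10.17 against 10.43 to 10.66 with vehicle, and in 0 of 6 with LG268, 1 of 6 with TBT and MEHP and 2 of 6 with TPhP. The 4 smooth muscle markers were lower in 3 with each of Rosi, TBT, TPhP and MEHP. The stromal progenitor markers averaged 8.28 to 8.87 with Rosi, against 9.05 to 9.41 with vehicle, and were lower in 4 of 6. Their part in the differences of the Wnt genes was not tested.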

How the data were processed

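The deposited table holds log2 values of 52 Affymetrix Mouse Gene 2.0 ST arrays. Per the submitters' processing notes R 3.3.1 and oligo were used, and how the values were normalized or corrected for background is "not given in the sources used here". Of 41345 probe sets, 23521 carried 1 gene and were used, 1814 had several genes and 16010 had none listed, which gave 22180 genes. Tests covered the 14911 genes for which 4 or more arrays exceeded the table's median of 4.05. Group means of all 13 groups were fitted together in limma (39 residual and 3.45 prior degrees of freedom, spread pooled over groups), and two-sided p-values of contrasts were adjusted by Benjamini-Hochberg over all tested genes and called at 0.05, with 95% intervals.

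The labels' numbers 12, 15, 19 and 20 were read as pools of animals. A second fit added a replicate block for the pool, with 36 residual degrees of freedom, and for the 50 genes its value is given wherever it altered a call or shifted a count more than 1.5 times. After removal of group means, deviations of same-pool arrays correlated at a median of 0.219 and those of different pools at -0.087. Of 52 arrays 43 were closest to their own pool, and 41 of 52 same-pool pairs were above 0.1. No arrays held identical values.

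The genes and lists were chosen with earlier results of these data known. Array values are given for the 25 genes with the smallest adjusted p among those called in the 13 comparisons of time or of chemical against vehicle, and for the 3 next outside the threshold. The 7 other called genes were named after their values were seen, and the rest are counted. Up to 3 genes of a pathway list are named per comparison. All 54 genes matched RefSeq by gene ID, and promoters are RefSeq sequences on GRCm38.p6.

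Alternatives were the block, a fit of only the groups compared, cyclic loess, averaged probe sets, no filter on low values, a stricter filter at the 75th percentile (6.34), and each pool left out. For differences between chemicals or between days, leaving out pools was chosen after seeing the data. The fit was also run on simulated data with no pool effect and with the same spread of a gene in every group. These data differ in both, so that run says nothing of the fit in those respects. Software was limma 3.58.1 and data.table (1.17.8) in R 4.3.3, and in Python 3.11.15 numpy 2.4.6, pandas 2.3.3 and, for figures, matplotlib 3.10.9.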

Additional observations from a re-analysis of the deposited data

Results flagged for a closer look

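In Rosi cultures at day 4, Rspo3 in pool 12 had a log2 value of 8.06, while the other 3 pools lay between 7.27 and 7.40. It was 1 of 144 groups of named genes tested for a value far from the rest, or 0.694%, where chance marks about 1 in 20.

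In 25 cases the difference from vehicle at day 4 was not the same as at day 1 by limma's interaction test. The values below are the log2 difference at day 4 minus that at day 1, with adjusted p. With Rosi the antagonists Sfrp1 (-2.47, 3.72e-08), Dkk3 (-1.64, 6.78e-05), Sfrp4 (-1.64, 0.00158), Sfrp2 (-1.28, 0.00181) and Wif1 (-1.34, 0.0124) had negative values. So did Rspo2 (-1.35, 0.000192), Rspo3 (-0.98, 0.0076), Ror2 (-0.88, 0.0137), Ror1 (-1.0, 0.0175), Wnt11 (-0.65, 0.0285), Fzd9 (-0.71, 0.00457), Fzd1 (-0.76, 0.00229), Lrp6 (-0.61, 0.00616) and Wnt4 (-1.27, 0.00334). Of these, Fzd1, Lrp6 and Wnt4 were called higher than vehicle at day 1, and Sfrp2 and Rspo2 were called lower. Sfrp1, Rspo3 and Fzd9 were on the other side of vehicle at day 1, at 0.44, 0.47 and 0.20, and were not called there. Fzd3 (1.37, 0.000428) and Wnt8b (1.22, 0.00196) had positive values. Wnt8b passed the filter on low values only through Rosi, TPhP and MEHP at day 4. Its test thus rests on groups in which it was high.

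With MEHP the values were -1.41 for Sfrp1 (0.00209), -1.45 for Sfrp2 (0.00373), -1.27 for Dkk3 (0.00854), -1.13 for Ror2 (0.00987), -1.54 for Wif1 (0.0192) and 1.03 for Fzd4 (0.0432). With TBT they were -1.24 for Sfrp2 (0.0298) and 1.22 for Fzd4 (0.0328), and with TPhP 1.21 for Fzd4 (0.0195). All of those with MEHP, TBT and TPhP were lost without pool 19, with adjusted p between 0.0692 and 0.418. With Rosi, Ror1, Ror2, Rspo3, Wif1, Wnt11, Wnt4, Wnt8b, Fzd1, Lrp6 and Sfrp2 were each lost without at least 1 pool, and Sfrp1, Dkk3, Rspo2, Fzd3, Sfrp4 and Fzd9 were kept.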

How the results depend on the processing

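Of 105 calls of the 50 genes in the 13 comparisons, 39 held in every setting run, 66 were lost in at least 1 and 0 reversed. With only the arrays compared, the counts of genes called were 4 for vehicle at day 4 against naive cells and 0 for vehicle at day 4 against day 1. They were 3, 1 and 3 with TBT, TPhP and MEHP at day 1, and 1, 9, 3 and 8 with LG268, TBT, TPhP and MEHP at day 4. With the replicate block, the counts were 1, 2 and 4 with TBT, TPhP and MEHP at day 1 and 13 with LG268 at day 4; apart from the 34 calls the pairing of pools added, as given in the text, it changed no other call in these comparisons, and its changes between chemicals and between days are given there too. Without a filter, 2 genes were called for vehicle at day 1 against naive cells. With the stricter filter, which left 19 of the genes, 1 was called with MEHP at day 1, and 13 with Rosi and 9 with MEHP at day 4. With 1 pool left out, the counts ran from 1 to 7 for vehicle at day 1 and from 9 to 22 at day 4 against naive cells, and from 3 to 6 for vehicle at day 4 against day 1. At day 1 they ran from 2 to 10 with Rosi, 0 to 0 with LG268 and TBT, and 0 to 1 with TPhP and MEHP. At day 4 they ran from 18 to 23 with Rosi, 4 to 9 with LG268, 10 to 17 with TBT, 5 to 20 with TPhP and 11 to 20 with MEHP. With cyclic loess, Dkk1 (adjusted p = 0.0554) and Fzd7 (0.0581) in vehicle at day 4 against day 1, Fzd1 in vehicle at day 1 against naive cells (0.113) and Rspo3 with Rosi at day 4 (0.062) were not called. The counts of this section are given without the shares of all genes called in the same setting. Beyond fewer arrays or genes in a fit, the cause was not tested. Values near the median of the table, as for Wnt8b, Wnt10b, Wnt16, Dkk1 and Dkk4, limit what can be said of size.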
